A study of Mus musculus with 3 samples.

Results

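Transcripts of 10 specific granule and late neutrophil proteins, secretory and surface molecules of maturing neutrophils, were measured in mouse bone marrow: Camp, Ngp, Ltf, Lcn2, Hp, Olfm4, Chil3, Cd177, Wfdc21 and Retnlg. They were chosen by symbol, and 10 of 10 had 1 entry each among 23282 gene entries. Male wild type C57BL/6 mice, 6 weeks old, were given sterile water by oral gavage for 28 days, and marrow cells were taken on day 29 and freed of red cells by lysis. The 3 libraries form 1 group, the vehicle arm of a series on Asari Radix et Rhizoma, a wild ginger used in herbal medicine. Samples given the herb were not analysed here, and no treatments are compared. The labels do not say whether the libraries came from separate mice or from pools, so the spread between them may be technical.

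Neutrophil granules are filled in a fixed order as the cell matures. Primary (azurophil) granules form in promyelocytes, specific granules in myelocytes and metamyelocytes, and gelatinase granules and surface molecules come last, and a protein enters the granule type that is being built when its gene is active. Specific granule proteins starve bacteria of iron, bind or break their membranes and modify the inflamed tissue, and the transcription factor C/EBPε is required for their expression in mice and humans. The names Wfdc21 and Retnlg are used in mouse studies as labels of late maturing neutrophils.

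Together the members held 2.09%, 1.60% and 2.04% of gene-assigned reads in replicates 1, 2 and 3, a mean of 1.91% ± 0.269 (SD, n = 3). The exact 95% Clopper-Pearson intervals were 2.08% to 2.10%, 1.59% to 1.61% and 2.03% to 2.04%, so replicate 2 lay below the other libraries by far more than counting error. The libraries held between 8104828 and 9168435 reads. Levels are given as reads per 1000000 gene-assigned reads of the library (CPM). Intervals cover counting error only. In whole marrow, fewer neutrophils and less of a transcript per neutrophil cannot be told apart.

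Among the granule cargo genes, Ngp and Camp on chromosome 9 held most of the reads. Ngp, which encodes a cystatin-related granule protein of rodents (GRCm38 chromosome 9, 110419747 to 110423012), was read at 7872, 5913 and 7893 CPM in replicates 1, 2 and 3, and it ranked 11 among all entries by CPM. Camp, which encodes cathelicidin, the precursor of a membrane-disrupting peptide (chromosome 9, 109847379 to 109849617), had 5267, 4146 and 4763 CPM and ranked 12. In both genes replicate 2 was lowest, and the CPM of Ngp per CPM of Camp was 1.49, 1.43 and 1.66.

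The iron-handling cargo had fewer CPM. Ltf, which encodes the iron-binding protein lactoferrin (chromosome 9, 111019271 to 111042767), had 1409, 940 and 1243 CPM. Lcn2, which encodes a lipocalin that captures bacterial siderophores (chromosome 2, 32384633 to 32388252), had 933, 675 and 1025 CPM. Hp, which encodes haptoglobin, the binder of free haemoglobin (chromosome 8, 109575128 to 109579172), had 450, 322 and 443 CPM. Each of these was again lowest in replicate 2. Haptoglobin is best known as a liver protein, and the liver genes Alb, Apoa1 and Ttr had 0 reads in all 3 libraries, which allows up to 0.114 CPM each over the libraries together.

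Olfm4 stood apart from the other cargo genes in level and in pattern. It encodes olfactomedin 4, a secreted glycoprotein that marks a subset of neutrophils in mice and humans (chromosome 14, 79984081 to 80023139). It had 54, 38 and 18 reads, or 5.89, 4.69 and 1.97 CPM, with exact 95% intervals of 4.42 to 7.68, 3.32 to 6.44 and 1.17 to 3.11 CPM. Replicate 3, not replicate 2, was lowest, and its interval did not reach those of the other libraries. The annotation places the long noncoding gene Gm6999 over the same strand, and its reads were not separated from those of Olfm4. Epithelial cells also make Olfm4, and of the epithelial genes Krt8 had 0 reads in every library, while Epcam had 20, 1 and 3 reads and Krt18 had 18, 0 and 15. Their part in the Olfm4 values was not tested.

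The lectin-like and the surface member differed in level and in spread. Chil3, which encodes Ym1, a chitinase-like lectin without chitinase activity (chromosome 3, 106147554 to 106167564), had 1003, 942 and 1135 CPM. Its CV was 9.64% over the 3 libraries, the lowest of the members on library totals. With TMM scaling it was 13.5%, above those of Retnlg (9.45%) and Camp, and with each other scaling tried it was likewise above both. Cd177, which encodes a neutrophil surface glycoprotein anchored by a lipid (chromosome 7, 24743983 to 24760311), had 224, 150 and 227 CPM and a CV of 21.7%. Replicate 2 was lowest for both on library totals. After scaling by trimmed mean of M-values (TMM) Chil3 had 939, 960 and 1189 CPM, so that replicate 1 became its lowest library.

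The late members ranked 18 and 36 among all entries by CPM. Retnlg, which encodes resistin-like gamma, a small cysteine-rich secreted protein (chromosome 16, 48872621 to 48874496), had 2515, 2046 and 2406 CPM. Wfdc21, which encodes a small protein with a whey acidic protein domain (chromosome 11, 83746940 to 83752642), had 1212, 847 and 1219 CPM. Both were lowest in replicate 2, and Retnlg was the steadier of the pair, with a CV of 10.6% against 19.5% for Wfdc21.

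**Figure D1:**
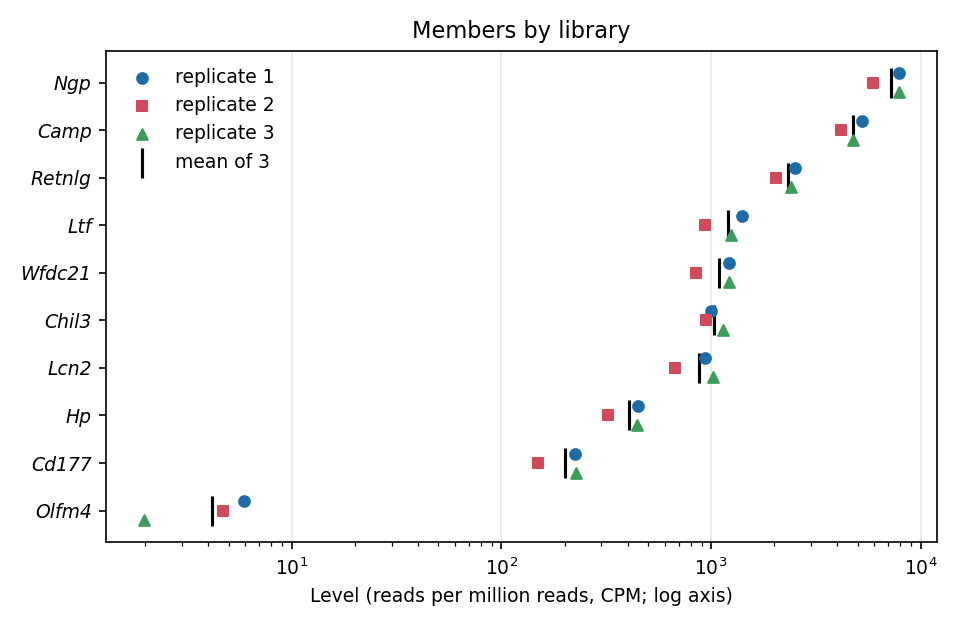
Level of each member in CPM (log axis) in the 3 vehicle libraries; symbols are libraries and the bar is their mean. 9 of the members lie between 150 and 7893 CPM, with replicate 2 at the left, and Olfm4 lies at 1.97 to 5.89 CPM with replicate 3 at the left.

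The order of the levels was Ngp, Camp, Retnlg, Ltf, Wfdc21, Chil3, Lcn2, Hp, Cd177 and Olfm4. In CPM, the neighbours Ltf and Wfdc21, Wfdc21 and Chil3, and Chil3 and Lcn2 had overlapping ranges over libraries, and every other pair of neighbours did not. The means spanned 1728-fold from Ngp to Olfm4, and 36.1-fold without Olfm4. A QuantSeq kit, as the labels name it, starts from the poly(A) tail, so that a long transcript should not gain reads, but the catalogue number they give may belong to a kit that reads whole transcripts. The files do not show where the reads lie, so which of the orders reflects transcript numbers is not settled. Per kb of spliced length in the GENCODE models, the order became Camp, Ngp, Retnlg, Wfdc21, Lcn2, Chil3, Ltf, Hp, Cd177 and Olfm4. On that scale Camp averaged 6234 ± 741 and Ngp 5913 ± 931 CPM per kb (SD, n = 3) with overlapping ranges, and Ltf, whose transcript is 2.74 kb long, averaged 436 ± 86.8 CPM per kb. Retnlg after Ngp and Camp, and Hp, Cd177 and Olfm4 at the end, kept their places on both scales.

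All 10 members differed between the libraries beyond counting noise (exact binomial test of each library against the others, Benjamini-Hochberg adjustment over 11833 genes at 0.05). Of all genes tested 56.5% were called, and of the 524 genes with at least the 5346 reads of Cd177 92.7% were, so the count of members is close to that of other abundant genes. With TMM scaling 10 of 10 members were called, beside 51.8% and 89.1%. The members' median CV was 18.6%, beside 17.1% over all genes tested and 9.75% over those 524 genes, of which 12.0% had a CV at or above the members' median. With TMM scaling the members' median CV was 17.1%, beside 16.2% and 8.92%.

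The members shared a direction with 1 clear exception. On library totals 9 of 10 were lowest in replicate 2, and Olfm4 was lowest in replicate 3. Called genes lowest in replicate 2 made up 21.4% of all genes tested and 37.8% of the 524 abundant ones. With TMM scaling 8 of 10 members were lowest in replicate 2, where Chil3 and Olfm4 were the exceptions, beside 17.8% and 29.6%. For the exceptions, called genes lowest in replicate 3 made up 26.2% of all genes tested and 43.7% of the abundant ones on library totals, and 16.3% and 23.9% with TMM scaling. Those lowest in replicate 1 made up 8.82% and 11.3% on library totals, and 17.7% and 35.7% with TMM scaling. The median tested gene of replicate 1 stood 0.10 log2 units above its own mean over the libraries on library totals and 0.01 above with TMM scaling. Against that, the members' median stood at 0.17, -0.30 and 0.14 log2 units in replicates 1, 2 and 3 on library totals and at 0.07, -0.27 and 0.21 with TMM scaling.

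**Figure D2:**
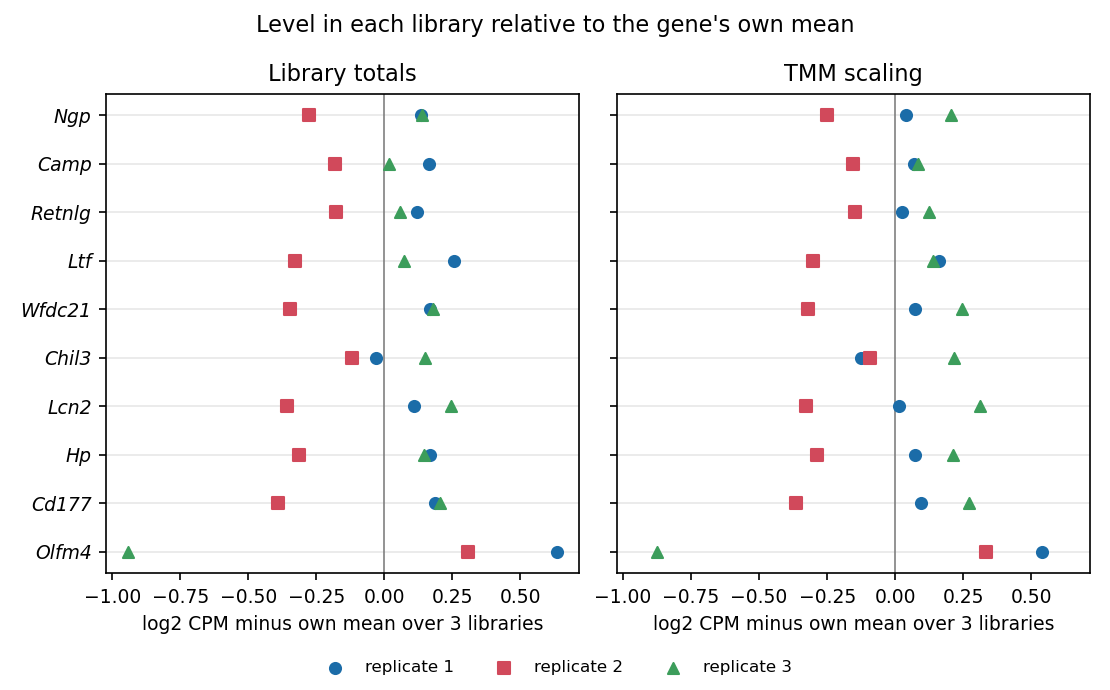
log2 level of each member minus its own mean over the 3 libraries, on library totals (left) and with TMM scaling (right). Replicate 2 is at the left for 9 members on library totals and for 8 with TMM scaling; Olfm4 has replicate 3 at the left on both.

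How far the libraries lay apart differed among the members. Lcn2 and Cd177 had the widest ranges after Olfm4, with the highest library at 1.52 and 1.51 times the lowest, and Chil3, Retnlg and Camp the narrowest, at 1.21, 1.23 and 1.27 times. The range of Olfm4 was 2.99-fold (adjusted p = 0.000364, exact binomial test). Between replicates 1 and 3 alone, 4 members did not pass the test: Ngp, Hp, Cd177 and Wfdc21, with adjusted p = 0.737, 0.591, 0.820 and 0.764 by the same exact binomial test. Their CVs were 0.183%, 1.16%, 0.756% and 0.420% in place of 15.7%, 17.7%, 21.7% and 19.5%. Camp, Ltf, Lcn2, Chil3, Retnlg and Olfm4 were still called without replicate 2, with ranges of 1.11, 1.13, 1.10, 1.13, 1.05 and 2.99 times. Of all genes tested without replicate 2, 39% were called. Without replicate 3 Olfm4 was not called (adjusted p = 0.433, exact binomial test), and its CV was 16.1% in place of 48.0%. Without replicate 3 the CV of Chil3 was 4.44% in place of 9.64%, and without replicate 2 those of Camp, Ltf, Lcn2 and Retnlg were 7.11%, 8.88%, 6.66% and 3.12%.

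Ratios within a library need no scaling, and by them the make-up of the member reads moved little. Ngp and Camp together made up 62.9%, 62.9% and 62.2% of the member reads in replicates 1, 2 and 3. The late members Wfdc21 and Retnlg made up 17.8%, 18.1% and 17.8%, a mean of 17.9% ± 0.160 (SD, n = 3), with overlapping exact 95% intervals of 17.7% to 18.0%, 17.9% to 18.3% and 17.6% to 18.0%. Inside that steady sum the parts moved in opposite ways: Retnlg took 12.0%, 12.8% and 11.8% and Wfdc21 5.80%, 5.30% and 5.99%. After Olfm4, Chil3 shifted most, with 4.80%, 5.89% and 5.58%, a 1.23-fold range, and its share was highest in replicate 2. Lcn2 took 4.46%, 4.22% and 5.03% and Ltf 6.75%, 5.88% and 6.11%, so that the reads of Lcn2 per read of Ltf were 0.662, 0.719 and 0.825. Retnlg reads per Camp read were 0.477, 0.494 and 0.505, a 1.06-fold range.

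**Figure D3:**
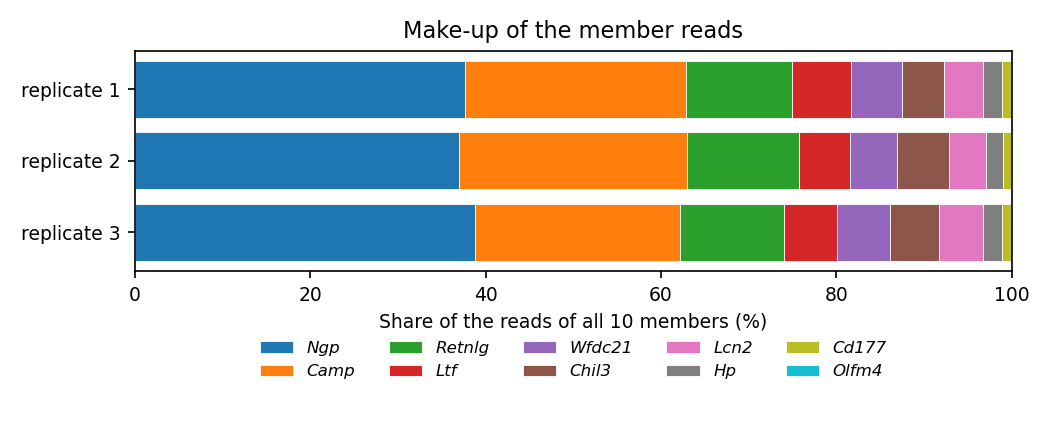
Share of the reads of all 10 members (%) taken by each member in each library, in stacked bars that add to 100%. Ngp and Camp fill 62.2% to 62.9% in each bar, and Olfm4, at 0.00968% to 0.0293%, is too small to see.

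3 of the members lie on the same stretch of chromosome 9, with other genes between them. Camp, Ngp and Ltf lie within 1195 kb (GRCm38 chromosome 9, 109847379 to 111042767), 570 kb and 596 kb apart. The other 27 measured genes of that stretch had a median of 1.76 CPM, and 8 had 0 reads in all libraries. The most abundant of them in CPM were Setd2, Smarcc1 and Cdc25a, at 248 ± 38.0, 189 ± 11.4 and 79.2 ± 10.4 CPM (SD, n = 3). Camp, Ngp and Ltf held 95.1%, 93.6% and 95.6% of the reads of the stretch in replicates 1, 2 and 3. Setd2, which encodes a histone methyltransferase, had 258, 280 and 206 CPM, Smarcc1, a chromatin remodelling subunit, 192, 199 and 176 CPM, and Cdc25a, a cell cycle phosphatase, 79.2, 89.7 and 68.8 CPM. These 3 genes were highest in replicate 2 with either scaling, where Camp, Ngp and Ltf were lowest. Of the 27 other genes 14 were tested and 8 called, beside 56.5% of all genes tested. Of all 8 called neighbours, 1 (Nbeal2, with 29.4, 17.3 and 28.6 CPM) was lowest in replicate 2 with either scaling. Replicate 3 was the lowest library for 6 of the 8 on library totals and for 5 with TMM scaling. Of the 6687 genes called on library totals, 3105 were lowest in replicate 3 and 2538 in replicate 2. Of the 6127 called with TMM scaling, 1928 were lowest in replicate 3 and 2108 in replicate 2.

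**Figure D4:**
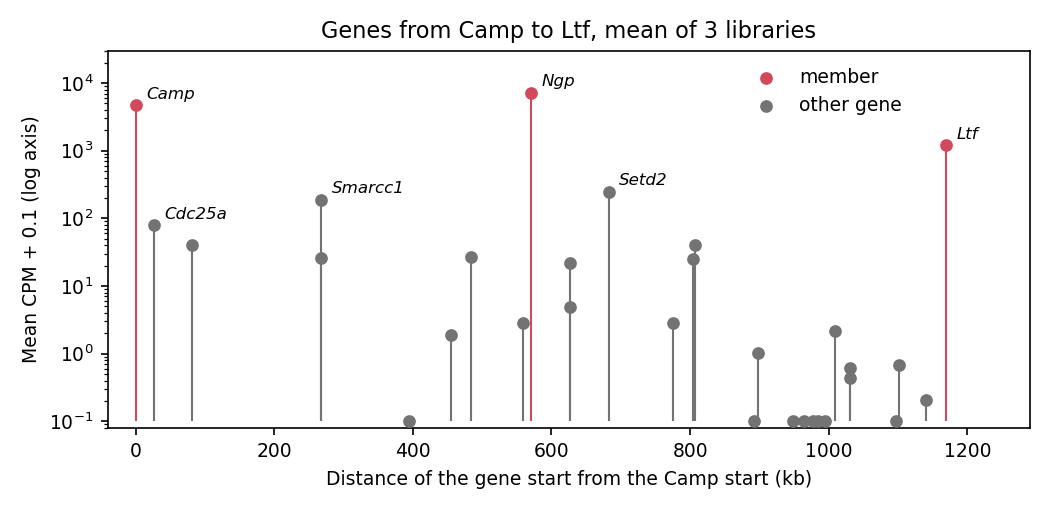
Mean level over 3 libraries (CPM + 0.1, log axis) of the 30 measured genes from Camp to Ltf, against the distance of each gene's start from that of Camp in kb. Camp, Ngp and Ltf average 1197 to 7226 CPM, and no other gene of the stretch exceeds 248 CPM.

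The members' promoter windows, the 250 bases before the RefSeq start, were searched for letters bound by granulocyte factors. Why most members varied together was not tested. The gene positions above are GENCODE bounds, and the RefSeq starts differ from them for some members. The windows of Lcn2 and Olfm4 lie wholly inside the GENCODE gene, and those of Camp, Ngp and Ltf partly. Of the 10 members 8 matched a promoter entry (RefSeq, GRCm38.p6): Camp, Ngp, Ltf, Lcn2, Olfm4, Chil3, Cd177 and Retnlg. The C/EBP letters TTGCNNAA, read on both strands, stood in 4 of the 8, and in 9.55% of 27025 promoter windows of the same length. The 4 windows with this match are shown, 5′ to 3′ along the gene, with capitals for matches to TTGCNNAA or to the ETS purine box GAGGAA on either strand.
Ngp (chr9:110419558-110419807, plus strand): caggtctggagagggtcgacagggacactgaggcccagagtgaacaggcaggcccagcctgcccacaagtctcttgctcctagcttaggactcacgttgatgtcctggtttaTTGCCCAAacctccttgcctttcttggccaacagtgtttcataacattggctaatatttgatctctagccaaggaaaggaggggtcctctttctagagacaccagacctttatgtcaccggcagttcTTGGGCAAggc
Ltf (chr9:111019042-111019291, plus strand): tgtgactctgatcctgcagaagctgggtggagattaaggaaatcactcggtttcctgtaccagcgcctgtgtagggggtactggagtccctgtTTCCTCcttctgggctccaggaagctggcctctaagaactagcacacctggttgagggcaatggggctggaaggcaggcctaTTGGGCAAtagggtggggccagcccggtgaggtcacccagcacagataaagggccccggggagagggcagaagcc
Lcn2 (chr2:32387740-32387989, minus strand): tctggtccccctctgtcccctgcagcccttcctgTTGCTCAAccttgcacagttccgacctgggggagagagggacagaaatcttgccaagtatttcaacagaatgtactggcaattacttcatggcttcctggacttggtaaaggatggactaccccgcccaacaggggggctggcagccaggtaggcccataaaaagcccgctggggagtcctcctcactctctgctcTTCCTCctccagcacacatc
Retnlg (chr16:48872358-48872607, plus strand): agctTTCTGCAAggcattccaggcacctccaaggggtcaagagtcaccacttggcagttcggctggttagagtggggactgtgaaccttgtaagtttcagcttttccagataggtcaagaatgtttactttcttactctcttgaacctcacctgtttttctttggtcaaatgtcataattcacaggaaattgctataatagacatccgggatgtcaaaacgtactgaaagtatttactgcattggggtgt

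Ngp held 2 C/EBP matches, which begin 138 and 11 bases before the RefSeq start. Ltf held 1 at 75 bases, Lcn2 1 at 216 bases and Retnlg 1 at 246 bases. By the GENCODE bounds the second match of Ngp and that of Lcn2 lie inside the gene. The second match of Ngp and that of Ltf have the same letters, TTGGGCAA, and the first match of Ngp is their reverse complement, TTGCCCAA. Those letters, singled out after the matches were seen, stood in 0.722% of the windows on either strand. The purine box GAGGAA, the core bound by PU.1 and other ETS factors, stood in Ltf, Lcn2, Olfm4 and Cd177, and in 23.1% of all windows. The STAT letters TTCNNNGAA stood in Chil3, and in 7.18% of all windows. The RUNX letters TGTGGT (14.2% of windows) and the GFI1 letters AATCACNGC (0.784%) matched in 0 of the 8 members. None of these motifs overlapped another in a member. The share of G and C in the members' windows had a median of 53.6%, beside 52.0% over all windows, and Chil3 was lowest at 36.4%. A match is a description of letters and not a bound site.

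Genes of the other neutrophil stages were set beside the members. Of 36 tested genes of the primary granule, other specific and gelatinase granule and other mature neutrophil lists, 33 were called, beside 56.5% of all genes tested and 92.7% of the 524 abundant ones. Of the 36, 28 were called and lowest in replicate 2, beside 21.4% and 37.8%. With TMM scaling 8 of 8, 9 of 14 and 11 of 14 genes of these lists were lowest there. These lists hold all the measured neutrophil markers: Mpo, Elane, S100a8, S100a9, Cxcr2 and Csf3r. In the primary granule list 8 of 8 were called and 8 were lowest in replicate 2, among them the peroxidase gene Mpo with 1004, 706 and 849 CPM and the elastase gene Elane with 416, 294 and 485 CPM. Prtn3, which encodes the proteinase that cleaves cathelicidin and is held on the surface by CD177 in human neutrophils, had 402, 243 and 286 CPM, and Serpinb1a, an inhibitor of these proteases, 303, 252 and 268 CPM. Of the other specific and gelatinase granule list 11 of 14 tested genes were called. Its collagenase Mmp8 had 1047, 952 and 1127 CPM, its gelatinase Mmp9 1053, 656 and 821 CPM, its oxidase subunit Cybb 968, 957 and 1160 CPM and its lysozyme Lyz2 377, 285 and 275 CPM. The pentraxin gene Ptx3 had 1, 0 and 1 reads.

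The reads of the members were also set against those of the other neutrophil lists. Member reads per primary granule read were 8.40, 9.18 and 9.34 in replicates 1, 2 and 3, a 1.11-fold range, and per read of the other specific and gelatinase granule list 4.29, 4.05 and 4.18, a 1.06-fold range. Per read of the alarmin genes S100a8 and S100a9 they were 0.301, 0.295 and 0.280, a 1.07-fold range. Per read of the other mature neutrophil list without S100a8 and S100a9 they were 11.5, 13.3 and 14.1, a 1.22-fold range. Of the other mature neutrophil list 14 of 14 tested genes were called, with S100a8 at 29850, 20324 and 32638 CPM, S100a9 at 39569, 33845 and 40019 CPM, Ccl6, a chemokine, at 444, 309 and 443 CPM and Il1b, the interleukin-1β gene, at 349, 155 and 205 CPM. Ly6g of that list was not measured, as no entry stood under its symbol.

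Chil3 was also set against monocyte and other granule genes. Its reads per read of the 5 monocyte markers were 0.880, 0.861 and 0.884, a 1.03-fold range, and per read of Mmp8 and Cybb 0.958, 0.990 and 1.01, and 1.04, 0.984 and 0.979. These ratios were chosen after the values were seen, and others were wider: Chil3 reads per read of the monocyte gene Ly6c2 were 2.28, 2.20 and 1.90, and those per read of Ltf had a 1.41-fold range. For all member reads the ratio to the monocyte markers was 18.3, 14.6 and 15.9. Chil3 is also made by mouse monocytes and macrophages, and their part in its level was not tested. The monocyte gene Ly6c2 had 439, 429 and 599 CPM.

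Of the genes that regulate granule formation, 11 of 12 were called, beside 56.5% of all genes tested, and 10 with TMM scaling, beside 51.8%. Of the abundant genes 92.7% were called, and 89.1% with TMM scaling, but among the regulators only Spi1, with 5754 reads, was as abundant as those. On library totals 7 of the 12, called or not, were lowest in replicate 2, and of these Cebpa was not called. Called genes lowest there made up 21.4% of all genes tested and 37.8% of abundant ones. Csf3r, among the 7, is also in the other mature neutrophil list. Spi1, which encodes PU.1, was the most abundant in CPM with 233, 162 and 252 CPM, followed by Stat3 with 182, 132 and 119 CPM, the chromatin subunit Smarcd2, whose loss causes specific granule deficiency in humans, with 161, 127 and 136 CPM, and Cux1 with 131, 107 and 97.4 CPM. Cebpe, which encodes C/EBPε, had 72.6, 87.2 and 90.3 CPM (adjusted p = 0.000161, exact binomial test). It was lowest in replicate 1 and near its highest level in replicate 2, so that member reads per Cebpe read were 288, 183 and 225, a 1.57-fold range. Cebpe was singled out after its values were seen.

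Of the receptors and binding partners of the members, 8 of 10 tested genes were called, beside 56.5% of all genes and 92.7% of abundant ones. Called or not, 7 of the 10 were lowest in replicate 2, and of these Pecam1 and Tlr4 were not called. Called genes lowest there made up 21.4% of all genes tested and 37.8% of abundant ones. Fpr2, Prtn3, Itgam and Ctsc also stand in the neutrophil lists above, so the list is not a separate set. The cathelicidin receptor gene Fpr2 had 308, 223 and 315 CPM, the proteinase gene Prtn3 the values above, Cap1, which encodes a receptor described for human resistin, 204, 164 and 197 CPM, and the integrin gene Itgam 176, 184 and 204 CPM. Receptors that take up the secreted proteins differed in level. Lrp1, an endocytic receptor that binds lactoferrin, had 28.6, 22.2 and 19.7 CPM, and the haptoglobin-haemoglobin receptor gene Cd163 of macrophages had 35.4, 25.7 and 24.2 CPM. The lipocalin receptor gene Slc22a17 had 6, 7 and 7 reads, Lrp2, a large endocytic receptor that also binds lipocalin 2, had 0, 0 and 1, and the lactoferrin-binding lectin gene Itln1 had 0 in all 3.

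Relatives of the members ranged from 0 reads to the level of the protease inhibitor gene Slpi. Chil4, a close copy of Chil3, had 15, 5 and 7 reads against 9194, 7633 and 10374 for Chil3, and since reads shared by such copies could be placed on either gene, both counts carry that uncertainty. Chil1 had 95.2, 59.3 and 90.8 CPM and Chit1 4.36, 1.73 and 4.38 CPM, both lowest in replicate 2, and Chil6 and Chia1 had 0 reads. Beside Retnlg, the family genes Retn, Retnla and Retnlb had 17, 4 and 12 reads, 0, 0 and 2 reads, and 3, 4 and 6 reads. Beside Ltf, the transferrin gene Trf had 76.6, 73.0 and 62.2 CPM, and Meltf, listed under its older symbol, had 0 reads. Beside Wfdc21, Slpi had 249, 158 and 242 CPM, Wfdc17 16.6, 13.1 and 10.1 CPM, Wfdc18 2, 0 and 1 reads and Wfdc2 0, 0 and 1. Beside Olfm4, Olfm1 had 16.8, 23.2 and 21.2 CPM, and Olfm2 and Olfm3 had 0 reads. Beside Lcn2, Ptgds had 0, 1 and 0 reads, Lcn4 3, 0 and 6, and Lcn3 0.

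Markers of other marrow cells moved in their own ways between the libraries. The 4 erythroid markers held 6.61%, 9.83% and 9.95% of reads in replicates 1, 2 and 3, and the 5 eosinophil markers 0.142%, 0.0688% and 0.181%, a 2.63-fold range, with Prg2 at 1219, 586 and 1560 CPM. The 7 macrophage markers held 0.0425%, 0.0434% and 0.0372%, the 4 B cell markers 0.0358%, 0.0388% and 0.0330%, the 4 T and NK cell markers 0.00630%, 0.00519% and 0.00764% and the 5 monocyte markers 0.114%, 0.109% and 0.128%. The 5 osteoblast and stroma markers, of which Sp7 had 0 reads, held 0.0277%, 0.0226% and 0.0180%, and the 3 adipocyte markers, of which Plin1 had 0 reads, held 0.00302%, 0.00471% and 0.00247%. The sums of the eosinophil, monocyte and T and NK cell markers were lowest in replicate 2 on library totals, as 9 members were, and with TMM scaling that of the monocyte markers was lowest in replicate 1, at 0.107%, 0.111% and 0.134%. By gene, on library totals, 2 of 5 eosinophil markers (Prg2 and Epx), 4 of 5 monocyte markers and 1 of 4 T and NK cell markers (Nkg7) were lowest in replicate 2, and the other 3 T and NK cell markers were lowest in replicate 1. Their part in the member values was not tested. The neutrophil markers, 6 of 7 measured, held 7.11%, 5.53% and 7.42% with none at 0, and 6 of 6 were lowest in replicate 2. All 6 also stand in the neutrophil lists above, so they are not a separate set.

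**Figure D5:**
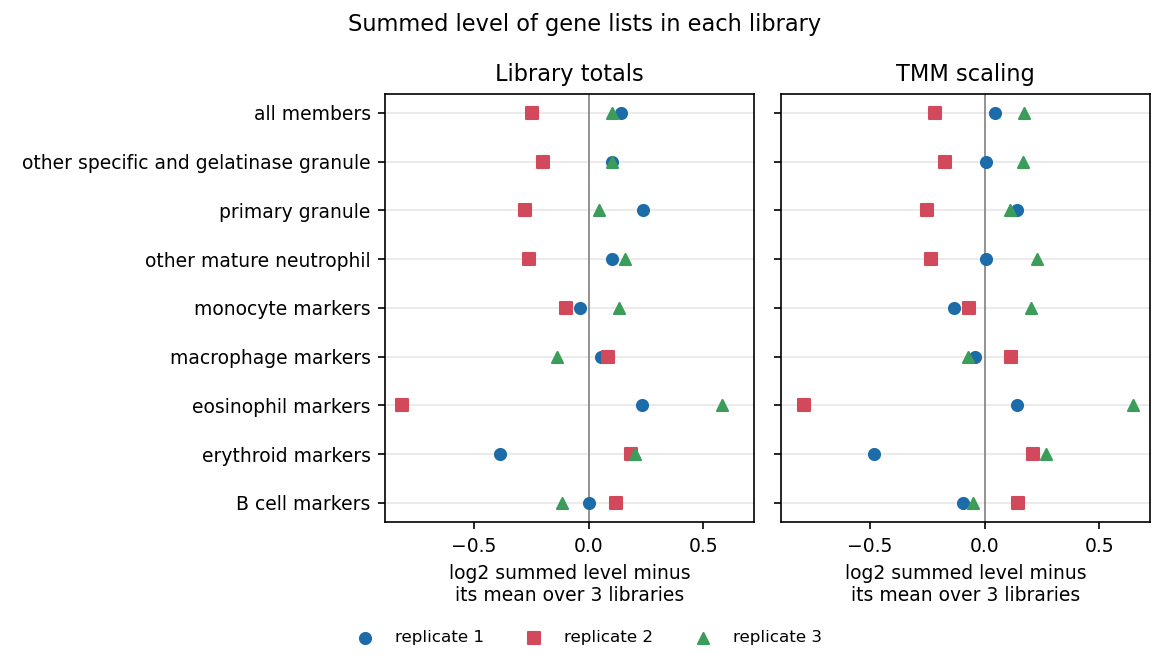
log2 summed level of the members and of other gene lists in each library minus the list's mean over the 3 libraries, on library totals (left) and with TMM scaling (right). The neutrophil lists and the eosinophil markers have replicate 2 at the left, erythroid markers have replicate 1 there, and monocyte markers have replicate 2 on library totals and replicate 1 with TMM scaling.

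By the distance between log2(CPM + 1) profiles over the 3 libraries, the genes most like the mean profile of all 10 members among 5398 with at least 20 CPM were 1110008F13Rik, Gnb2, Tmem179b, Ptk2b and Atg7, at distances of 0.00587 to 0.0142 log2 units. Gnb2 encodes a G protein subunit, Ptk2b a tyrosine kinase and Atg7 an autophagy enzyme. That list rests on Olfm4, the member with the fewest reads: the mean profile stood at 0.18, -0.23 and 0.05 log2 units in replicates 1, 2 and 3 with it, and at 0.14, -0.28 and 0.13 without it. Without Olfm4, a choice made after the values were seen, the nearest genes were Ctdnep1, B430306N03Rik, Pdcd5, Fxyd5 and Rpl15, at 0.00633 to 0.0150, and 0 of 5 were shared with the first list. Ngp then lay nearest of the members, at 0.00823, and Camp at 0.151, where with Olfm4 included Camp was nearest, at 0.0565. Within the members' own median distance lay 765 genes (14.2%) with Olfm4 and 411 (7.61%) without it, so the profile of 3 libraries picks out no small set.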

How the data were processed

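RNA from 3 vehicle libraries of red-cell-lysed marrow was taken up in Trizol and made into libraries from 500 ng with a kit the labels name Lexogen QuantSeq. The submitters' processing notes name Bowtie2, bedtools and mm10. Not given in the sources used here are their versions, the annotation, the strand setting and the scaling rule. The authors deposited log2 values. By their steps these are log2 of 1 plus reads per 1000000 of a total that was itself scaled. Within each library 100% of values were whole multiples of 1 read's worth within 1e-06, so whole reads were recovered. The planned test allowed for counts deposited or recovered.

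Levels are CPM of recovered reads. Genes with at least 30 reads were tested as described, with the smallest of 3 p-values multiplied by 3. It tests counting noise only, so small p-values give no size of spread. The test was tried on simulated counts first. TMM trimmed 30% of ratios and 5% of intensities. Gene positions are from GENCODE M21 on GRCm38, the assembly called mm10. Named genes were the members, the 4 most abundant genes of each list (of cell markers, those beside a result) and those with 0 reads, all measured paralogs, the 5 most similar profiles (Euclidean distance of centred log2 values) and the 3 most abundant genes between Camp and Ltf. Ptx3, Cebpe, Cd163, Lrp1, Slc22a17, Lrp2, Nbeal2 and the profile list without Olfm4 were picked after their values were seen. Members, lists and tests were chosen with earlier results of these data known. Python 3.11.15, SciPy 1.17.1 and NumPy 2.4.6 were used. Alternatives covered scaling, read minimum, test, pseudocount and leaving out each library.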

Additional observations from a re-analysis of the deposited data

How the results depend on the processing

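All 10 members were called under each alternative scaling, beside 51.8% to 52.8% of all genes tested. With read minimums of 10 and 1 and with a chi-square test 10 were also called, beside 54%, 45.8% and 58.9%. Without replicate 1, 2 or 3, the called members numbered 10, 6 and 9, beside 34.8%, 39% and 38.5% of all genes tested. The number of members lowest in the library with the lowest sum was 8 with each alternative scaling. When 1 library was left out it was 5 to 10. Without replicate 2 the lowest sum was that of replicate 3, and 5 of 10 members were lowest there. The summed level stayed within its SD under every scaling. That was largely by construction, since each scaling was brought to the same geometric mean as the library totals. These scalings therefore cannot show how the mean depends on which reads are counted in the total. The summed level stayed between 1.82% and 2.06% when 1 library was left out, and the late members' share between 17.8% and 18.0%. Calls in the other neutrophil lists, an alternative set added after the data were seen, numbered 34 or 35 under the other scalings and 26 to 30 when 1 library was left out, against 33. No paired analysis was possible because the libraries form 1 group. Depth limits Olfm4 most, whose counting intervals overlap between replicates 1 and 2. Called p-values compare these libraries with counting noise, not mice with mice.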
